A study of Mus musculus with 24 samples.

Results

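The mitochondrial ribosomal RNA genes are described here: mt-Rnr1, which gives the 12S RNA of the small subunit of the mitochondrial ribosome, and mt-Rnr2, which gives the 16S RNA of its large subunit. They are the 2 rows, of 24456 gene rows in each count table, whose symbol begins with mt-. The rule that chose them was meant to take in every gene of the mitochondrial genome, but the tables list the 13 mitochondrial protein genes under symbols without that prefix (ND1, COX1, CYTB and so on), and none of the 22 transfer RNA genes has a row. The protein rows are therefore used below as companions, transcripts of the same molecule, and are not counted as members. The data are stranded, rRNA-depleted total RNA libraries from testes of mice killed 20, 22, 24 or 26 days after birth, wild type (WT) or homozygous for a targeted Atad2 allele (KO). In that allele lacZ is joined to exon 11 of Atad2, and exon 12 and the neo cassette were removed with a Cre driven by the CMV promoter, which is active in most tissues. ATAD2 is a chromatin protein with a bromodomain and an ATPase domain. There were 4 WT and 4 KO libraries at each of days 20 and 22, and 2 and 2 at each of days 24 and 26, named here as WT_d20_2 for genotype, day and replicate. Strain, and whether each library came from 1 animal, are not given in the sources used here, so p-values measure the spread between these libraries.

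The mitochondrial genome is a small circle present in many copies per cell. Its heavy-strand promoters give long precursors in which transfer RNAs stand between the ribosomal and messenger RNAs, and cutting out the transfer RNAs releases the others. A termination site inside the leucine transfer RNA gene just after mt-Rnr2, bound by MTERF1, is known as the end of a shorter transcript that holds both ribosomal RNAs. The finished 12S and 16S RNAs are assembled in the mitochondrial matrix with proteins made from nuclear genes into the ribosome that translates the 13 mitochondrial messages, all of which encode subunits of the respiratory chain or of ATP synthase. In the testis, spermatogonia, spermatocytes and spermatids are known to differ in the number and form of their mitochondria.

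In build mm10, mt-Rnr1 (ENSMUSG00000064337.1) lies on the mitochondrial chromosome from 70 to 1024 and is 955 bases long, and mt-Rnr2 (ENSMUSG00000064339.1) lies from 1094 to 2675 and is 1582 bases long. Both are on the plus strand, have 1 exon and encode no protein. The 2 junctions that bound mt-Rnr2 are shown because they are where the members are separated from each other and from the first messenger RNA. The capitals mark the transfer RNA between them (valine at MT:1025-1093, leucine at MT:2676-2750), and the sequences are the GENCODE M21 transcripts of mm10 joined in genome order.
mt-Rnr1 to mt-Rnr2 (MT:995-1123, plus strand): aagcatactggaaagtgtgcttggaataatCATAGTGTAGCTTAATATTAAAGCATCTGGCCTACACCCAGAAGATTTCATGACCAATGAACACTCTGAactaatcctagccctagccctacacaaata
mt-Rnr2 to ND1 (MT:2646-2780, plus strand): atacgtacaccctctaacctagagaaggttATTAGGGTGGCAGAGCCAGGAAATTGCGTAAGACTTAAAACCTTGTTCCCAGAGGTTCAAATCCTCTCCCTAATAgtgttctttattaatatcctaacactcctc

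Which mitochondrial transcripts these tables can measure depends on copies of the mitochondrial genome in nuclear chromosomes, because read pairs that align to more than 1 place were discarded. Cutting each transcript into all windows of 75 bases, the read length, none of the 881 windows of mt-Rnr1 and none of the 1508 windows of mt-Rnr2 occurs in another annotated transcript on either strand. Both members had ample counts in every library, 14517 to 215357 for mt-Rnr1 and 9822 to 133847 for mt-Rnr2. In contrast, 99.9% of the windows of COX3 (MT:8607-9390), which encodes subunit 3 of cytochrome c oxidase, also occur in the pseudogene Gm28437 on chromosome 1, and the COX3 row held 7 to 31 counts. The first 60 bases of COX3 are shown with the same stretch of the copy because a read from either place fits both.
COX3 (MT:8607-8666, plus strand): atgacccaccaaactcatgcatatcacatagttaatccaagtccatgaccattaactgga
Gm28437 (chr1:24613912-24613971, minus strand): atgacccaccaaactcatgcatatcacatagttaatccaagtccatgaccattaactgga
The match runs on over all 783 aligned bases. COX2, ATP6, ND3 and ND4l share between 97.8% and 99.5% of their windows with neighbouring pseudogenes on the same stretch of chromosome 1, and their rows held at most 28 counts in any library. COX1 shares 39.8% of its windows and ND4 61.5%, so that their counts cover only part of the gene. ATP8 shares no window with an annotated transcript, yet its row held at most 3 counts. Its gene lies between COX2 and ATP6, whose copies on chromosome 1 lie at chr1:24614885-24615565 and chr1:24613974-24614651. The stretch between these copies was not searched, so 0% does not show that ATP8 reads fit a single place. For ND1, ND2, ND5, ND6 and CYTB the shared part was at most 5.71%. Unannotated copies were not searched, because no genome sequence of this build was used.

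**Figure D1:**
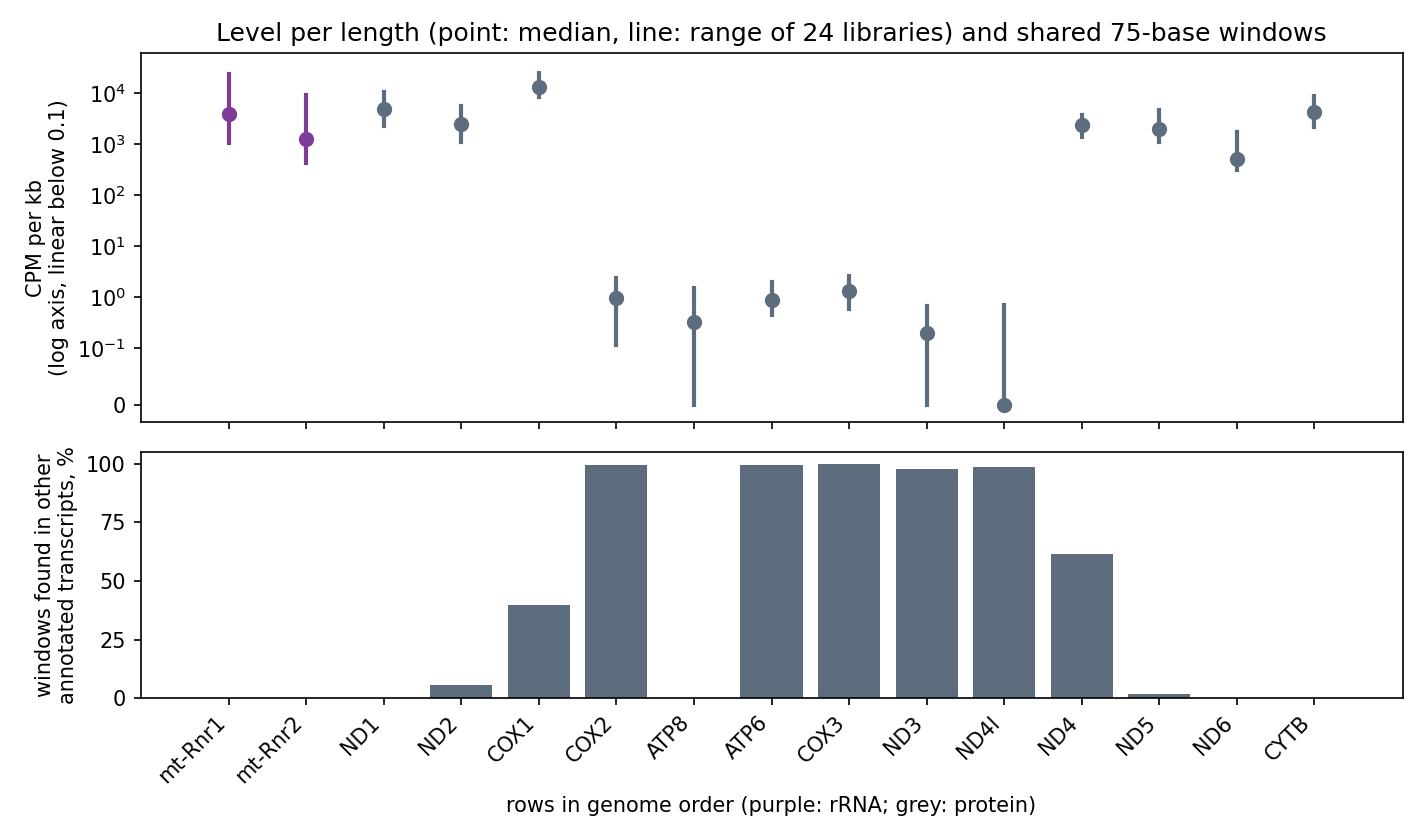
Level of the 15 mitochondrial rows in CPM per kb of annotated length (upper panel, log axis that is linear below 0.1; point, median; line, range over 24 libraries) and the share of each gene's 75-base windows that occur in other annotated transcripts (lower panel, percent). The 2 rRNA rows share 0% of their windows, and the 5 rows with 97.8% to 99.9% shared windows have medians of at most 1.33 CPM per kb.

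Libraries held 10709667 to 19491935 counts in gene rows. Atad2 lay between 30.8 and 53.0 CPM (counts scaled by library size with edgeR's TMM factors) in the KO libraries and between 76.1 and 171 CPM in the WT libraries, so the genotypes separated as labelled; the count spans the gene and includes what the targeted allele still transcribes. The protocol text speaks of a purified germ cell fraction while the tissue is labelled testis. All 8 Sertoli cell markers and all 6 Leydig cell markers had counts, with summed levels of 1055 to 2342 CPM and 318 to 1986 CPM, so somatic cells were represented in every library. WT_d20_2 was the shallowest library and stood apart in the results that follow, and values without it are given beside those that rest on it.

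Apart from WT at day 20, the group means of mt-Rnr1 ran from 2454 CPM (WT at day 26) to 4765 CPM (WT at day 24), and the libraries were widest apart within WT at day 20 and KO at day 22. At day 20 the WT libraries read 2985, 22677, 4604 and 4762 CPM and the KO libraries 3436, 2284, 3129 and 2445 CPM. WT_d20_2 was 5.51 times the mean of the other WT libraries of that day, and without it the ranges of WT and KO still overlapped. At day 22 the WT libraries read 5292, 4696, 4013 and 3176 CPM and the KO libraries 1958, 5209, 6631 and 973 CPM, so that KO held both the highest and the lowest library. At day 24 the WT libraries read 5102 and 4428 CPM and the KO libraries 4029 and 3089 CPM, with both KO libraries below both WT libraries. At day 26 the WT libraries read 2508 and 2400 CPM and the KO libraries 4235 and 3148 CPM, with the genotypes the other way round. With 2 libraries a side such separations are common: 21.4% of the genes tested had every KO library below every WT library at day 24, and 27.8% had every KO library above every WT library at day 26.

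The 16S row, mt-Rnr2, gave the same picture at a lower count per base. At day 20 the WT libraries read 1643, 14094, 2232 and 3071 CPM and the KO libraries 2466, 1396, 2096 and 1271 CPM. WT_d20_2 was 6.09 times the mean of the other 3. At day 22 the WT libraries read 2697, 2256, 2411 and 1924 CPM and the KO libraries 1253, 1851, 3917 and 658 CPM, again with the extremes in KO. At day 24 the WT libraries read 3275 and 2547 CPM against 2522 and 1818 CPM in KO, and at day 26 1452 and 1344 CPM against 1777 and 1522 CPM in KO. The genotypes did not overlap at these 2 days, in the same directions as for mt-Rnr1, although at day 24 the nearest libraries were close.

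**Figure D2:**
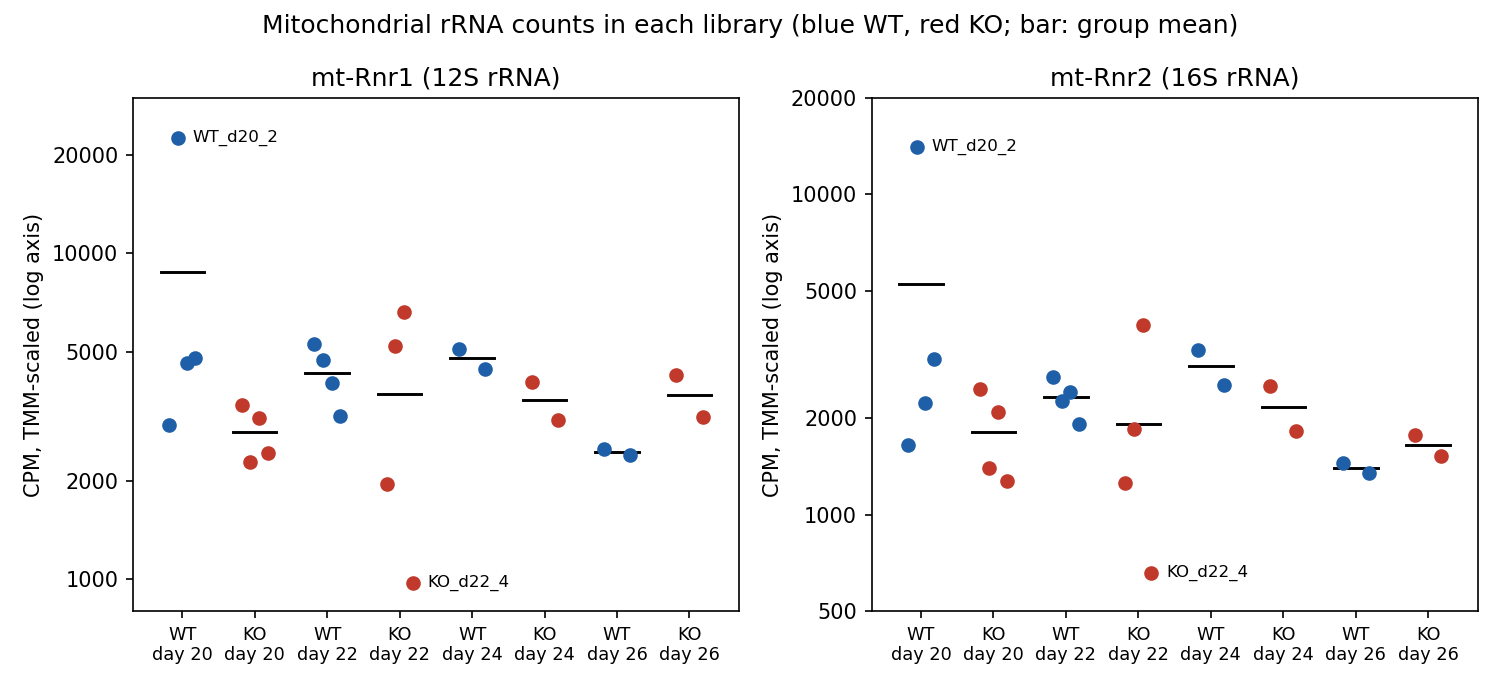
CPM (TMM-scaled, log axis) of mt-Rnr1 and mt-Rnr2 in each of 24 libraries, by genotype and day; points are libraries, blue WT and red KO, and bars are group means. WT_d20_2 lies at 22677 and 14094 CPM, above all others, and KO_d22_4 at 973 and 658 CPM, below all others.

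In order of group mean, mt-Rnr1 ran from 2454 ± 76.3 CPM in WT at day 26 (SD, n = 2) through 2824 ± 549 CPM in KO at day 20 (n = 4), 3559 ± 665 CPM in KO at day 24 (n = 2), 3692 ± 769 CPM in KO at day 26 (n = 2), 3693 ± 2667 CPM in KO at day 22 (n = 4), 4294 ± 911 CPM in WT at day 22 (n = 4) and 4765 ± 477 CPM in WT at day 24 (n = 2) to 8757 ± 9315 CPM in WT at day 20 (n = 4). Between neighbours in this order, the step was larger than the larger SD only from KO at day 20 to KO at day 24, and the ranges of those 2 groups overlapped. For mt-Rnr2 the lowest group was also WT at day 26, at 1398 ± 76.6 CPM, and the highest WT at day 20, at 5260 ± 5918 CPM. The step from WT at day 26 to the next group, KO at day 26 with 1650 ± 180 CPM, exceeded the SD and the ranges did not overlap. The step from WT at day 22 (2322 ± 322 CPM) to WT at day 24 (2911 ± 515 CPM) exceeded the SD with overlapping ranges, and no other step did. Without WT_d20_2 the mean of WT at day 20 was 4117 CPM for mt-Rnr1 and 2315 CPM for mt-Rnr2, within the range of the means of the other WT groups.

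KO was compared with WT at each day to ask whether loss of ATAD2 goes with a change in mitochondrial ribosomal RNA, and neither member was called in any of these contrasts. Tests are edgeR's quasi-likelihood test over all 24 libraries, with p-values adjusted over 17170 genes and a call at an adjusted p under 0.05. At day 20 mt-Rnr1 stood at -1.63 on the log2 scale in KO relative to WT (SE 0.558, adjusted p = 0.154) and mt-Rnr2 at -1.54 (SE 0.560, adjusted p = 0.192). Both had an unadjusted p under 0.05, DESeq2 called 0, and 3.34% of all genes were called at that day. Without WT_d20_2 the values were -0.56 and -0.38 (adjusted p = 0.531 and 0.673). Most of the day 20 difference was therefore lost without this library.

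At day 22 the log2 fold changes were -0.22 for mt-Rnr1 and -0.27 for mt-Rnr2 (SE 0.544 and 0.548), where 2.51% of genes were called. Leaving out KO_d22_4 turned them to 0.10 and 0.011, so no direction can be given. At day 24, where 0.0874% of genes were called, both were -0.42 (SE 0.771 and 0.775). At day 26, where 0.0466% were called, mt-Rnr1 was 0.59 (SE 0.772) and mt-Rnr2 was 0.24 (SE 0.775). None of these 6 values had an unadjusted p under 0.05 in edgeR and DESeq2 called none. When day 26 was fitted alone, on its 4 libraries, mt-Rnr1 was called higher in KO (log2 fold change 0.60, adjusted p = 0.0191) and mt-Rnr2 was not (0.25, adjusted p = 0.132). That fit called 12.8% of its genes, so a call is far more common in it than in the joint fit. In the joint fit, which pools the spread over all groups, the biological coefficient of variation was 0.517 for mt-Rnr1 and 0.520 for mt-Rnr2. Over the protein rows tested it ran from 0.196 (COX1) to 0.379 (COX2). Over the mean of the 4 days mt-Rnr1 was -0.42 (SE 0.334, adjusted p = 0.497) and mt-Rnr2 -0.50 (SE 0.336, adjusted p = 0.404), where 7.08% of genes were called. Without WT_d20_2 these means were -0.15 and -0.20 (adjusted p = 0.758 and 0.632).

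With age, both rRNAs were lower at day 26 than at day 20 in WT, and only mt-Rnr2 passed the test. In log2 units the difference was -1.91 for mt-Rnr2 (SE 0.738, adjusted p = 0.0441) and -1.84 for mt-Rnr1 (SE 0.730, adjusted p = 0.0503), so they lie on either side of the threshold with nearly the same size. In this contrast 42.5% of all genes were called, and 18.1% were called lower, so that a call is common here. DESeq2 called both. The call rests on WT_d20_2: without it the values were -0.77 for mt-Rnr2 (adjusted p = 0.221) and -0.79 for mt-Rnr1 (adjusted p = 0.236). The call of mt-Rnr2 was also lost, with little change in size, without WT_d22_4 (-1.91, adjusted p = 0.0508), KO_d24_1 (-1.91, 0.0514), KO_d24_2 (-1.91, 0.0512), WT_d24_1 (-1.91, 0.0521), WT_d26_1 (-1.97, 0.151) or WT_d26_2 (-1.86, 0.192). It was lost with only the 2 groups compared in the fit (-1.90, adjusted p = 0.142) and without the filter on low counts (-1.88, adjusted p = 0.0672).

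In KO the same contrast gave 0.39 (SE 0.657, adjusted p = 0.642) for mt-Rnr1 and -0.13 (SE 0.674, adjusted p = 0.881) for mt-Rnr2, while 52.2% of all genes were called. Neither had an unadjusted p under 0.05 and DESeq2 called neither. Whether the 2 genotypes differ in their change with age was tested directly, as the KO effect at day 26 minus that at day 20. This was 2.22 (SE 0.957, adjusted p = 0.389) for mt-Rnr1 and 1.78 (SE 0.958, adjusted p = 0.549) for mt-Rnr2 in edgeR, and mt-Rnr1 alone had an unadjusted p under 0.05. No gene was called by edgeR in this contrast (0.0%), 1857 had an unadjusted p under 0.05, and DESeq2 called 211, neither member among them. This share depends on the fit: 326 genes were called without KO_d20_2 and 90 with a replicate block, again neither member among them. Without WT_d20_2 the values fell to 1.18 (adjusted p = 0.402) and 0.64 (adjusted p = 0.646). The contrasts share libraries and are not independent of each other.

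**Figure D3:**
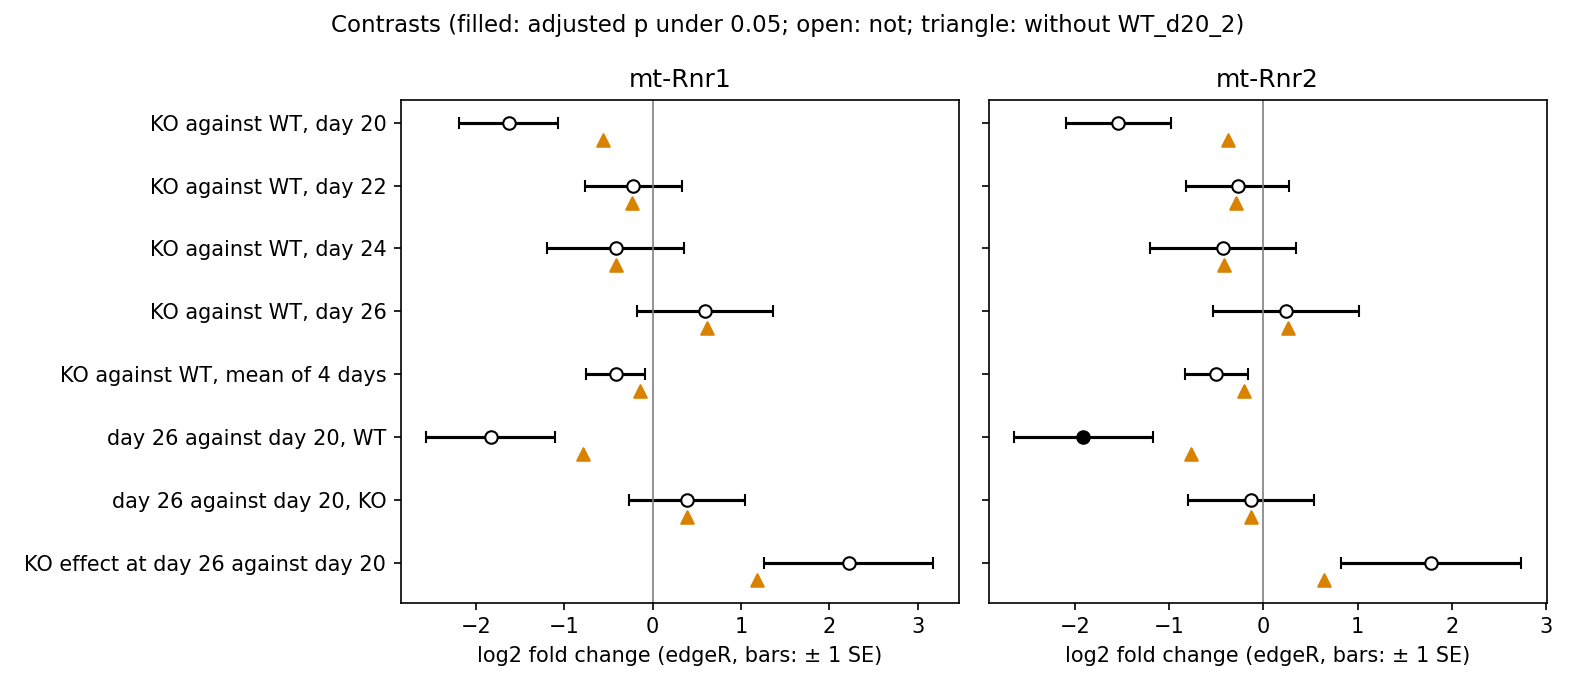
log2 fold change of mt-Rnr1 and mt-Rnr2 in the 8 contrasts (circles, edgeR over 24 libraries; bars, 1 SE; filled where the adjusted p is under 0.05) and the same without WT_d20_2 (triangles). Only mt-Rnr2 in WT at day 26 against day 20 is filled, at -1.91, and without WT_d20_2 it lies at -0.77.

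RNA from many testis cells at once cannot separate fewer cells of a type from less RNA per cell, and the cells present changed over these days. In WT the summed level of 8 round spermatid markers went from 22.4 to 66.7 CPM at day 20 to 761 to 773 CPM at day 26, and in KO from 53.8 to 157 CPM to 804 to 878 CPM. The 8 Sertoli cell markers went from 1616 to 2342 CPM to 1055 to 1229 CPM in WT, and from 1536 to 1732 CPM to 1280 to 1291 CPM in KO. WT_d20_2, the library with the most mitochondrial rRNA, had the lowest round spermatid level of all 24 libraries and the highest level of 6 early meiosis markers, 1723 CPM against 743 to 1265 CPM in the others. Its 6 muscle and brown fat markers, from tissues rich in mitochondria, stood at 16.3 CPM, against 11.3 to 15.5 CPM in the other WT libraries of day 20 and 8.11 to 42.3 CPM in all others. Its Sertoli cell level, 1616 CPM, lay below the 1962 to 2342 CPM of the other WT libraries of day 20. Its 5 blood markers stood at 12.8 CPM, against 5.11 to 19.4 CPM in all others. KO_d22_4, the library with the least, had the lowest peritubular level, 251 CPM from 5 markers, and the lowest muscle and brown fat level. Its Sertoli cell level, 1985 CPM, was exceeded in 2 libraries. The peritubular level of WT_d20_2, 952 CPM, was exceeded in 1 library. The 5 epididymis markers ran from 0.196 to 728 CPM over all libraries, with libraries over 50 CPM in every group, and stood at 0.632 CPM in WT_d20_2 and 0.201 CPM in KO_d22_4. Their part in the results was not tested. The part of these cells in the rRNA levels was not tested.

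As a share of the assigned counts, the 2 rRNA rows together had a median of 0.576%. They made up 0.170% in KO_d22_4 (95% Wilson interval 0.167% to 0.172%) and 3.26% in WT_d20_2 (3.25% to 3.27%), a spread far beyond counting error; these intervals cover counting error only. Libraries were depleted of ribosomal RNA before sequencing, so each value holds both the level in the cells and what the depletion left, which cannot be told apart here. Whether the depletion probes cover mitochondrial rRNA is not given in the sources used here. The nuclear rRNA precursor row Rn45s made up 1.57% to 3.69% of the counts and stood at 0.709 times the mean of the other WT day 20 libraries in WT_d20_2. Over the 24 libraries its share and the mitochondrial rRNA share had r = -0.088 (permutation p = 0.687) and rho = 0.11 (p = 0.593), and r was 0.17 without WT_d20_2 and KO_d22_4. After subtracting group means r was -0.35, and -0.11 without WT_d20_2.

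The members ran closely with each other and less closely with the protein rows. Over the 24 libraries the log2 levels of mt-Rnr1 and mt-Rnr2 had r = 0.96 and rho = 0.89 (permutation p = 1e-05 for both, the smallest these permutations can give, adjusted p = 4e-05 over 4 relations). Without WT_d20_2 and KO_d22_4, the libraries farthest from the median, r was 0.87, and after subtracting group means it was 0.96. The rRNA share and the share of the 13 protein rows had r = 0.72 (permutation p = 0.00019, adjusted 0.000253) and rho = 0.55 (p = 0.00566, adjusted 0.00755). Without the same 2 libraries r was 0.41, so this relation rests largely on them, although within groups it was 0.84, and 0.79 without WT_d20_2. The rRNA share also ran with the share of pairs that had several alignments (r = 0.82, permutation p = 9e-05, adjusted 0.00018; rho = 0.62, p = 0.00129, adjusted 0.00258), which was 0.40 without the 2 libraries, and within groups 0.86, or 0.78 without WT_d20_2. That tally holds the discarded pairs of COX2, COX3 and the other copied genes, among others, so mitochondrial messages are partly in it.

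**Figure D4:**
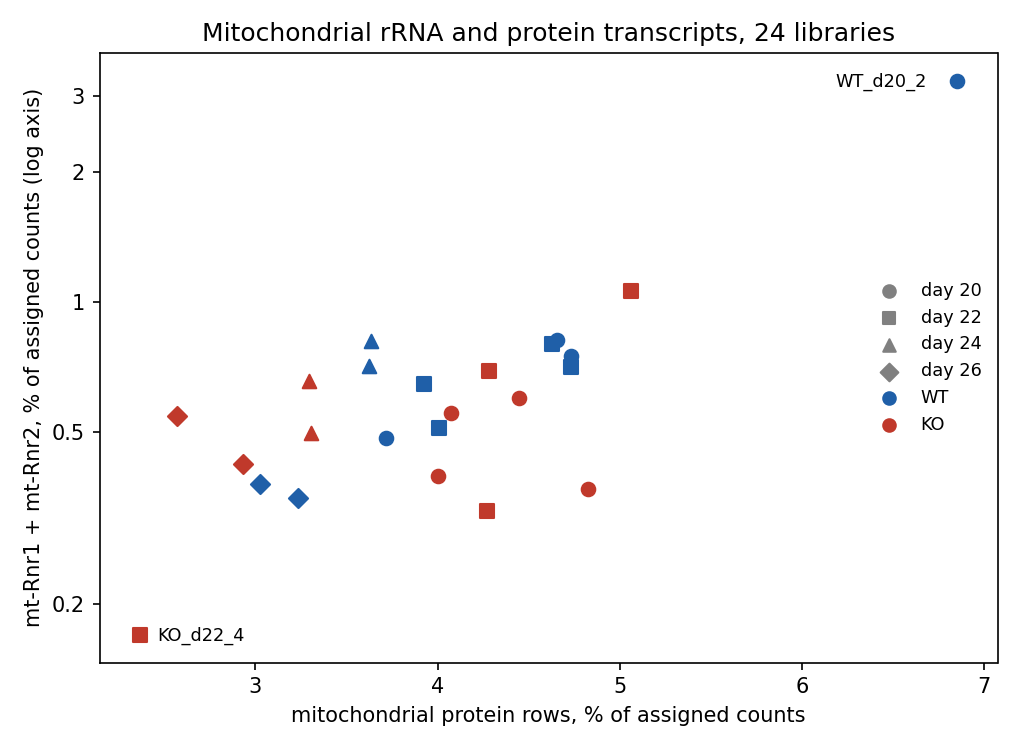
Share of assigned counts in the 2 mitochondrial rRNA rows (vertical, percent, log axis) against the share in the 13 mitochondrial protein rows (horizontal, percent), 1 point per library; blue WT, red KO, shapes give the day. WT_d20_2 (3.26% rRNA, 6.85% protein) and KO_d22_4 (0.170% and 2.37%) lie at the corners.

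The excess of rRNA in WT_d20_2 was larger than that of the messages. Against the mean of the other 3 WT libraries of day 20, mt-Rnr1 and mt-Rnr2 stood at 5.51 and 6.09 times, while the heavy-strand messages ND1, ND2, COX1, ND4, ND5 and CYTB stood at 1.58 to 2.13 times. ND6, a complex I subunit and the one protein gene read from the opposite strand, stood at 3.80 times. The 2 rRNA rows held 32.2% of all mitochondrial counts in that library, against 6.68% to 18.3% in the other 23. Outside it, the groups ranged from 9.99% ± 2.36 in KO at day 20 (SD, n = 4) to 17.4% ± 1.34 in WT at day 24 (n = 2).

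Per kb of gene, 12S exceeded 16S in all 24 libraries. The ratio of mt-Rnr1 to mt-Rnr2, both in CPM per kb, had a median of 2.81 and ran from 2.31 to 4.66. It was 2.92 ± 0.384 in WT and 2.67 ± 0.383 in KO at day 20 (SD, n = 4 each), 3.05 ± 0.358 and 3.13 ± 1.03 at day 22 (n = 4 each), 2.73 ± 0.212 and 2.73 ± 0.119 at day 24 (n = 2 each), and 2.91 ± 0.0691 and 3.69 ± 0.370 at day 26 (n = 2 each). WT_d20_2 did not stand apart in this ratio, which lay between 2.57 and 3.42 in the WT libraries of day 20. The genotypes overlapped at days 20, 22 and 24, and at day 26 the KO libraries (3.43 and 3.95) lay above the WT libraries (2.86 and 2.96). An exact two-sided permutation test on 2 against 2 libraries cannot give a p under 0.05, and none was run. Counting only windows found once left the lengths nearly as they were, since all windows of both members are unique, and the median levels were 4227 per 1000 windows for mt-Rnr1 and 1333 for mt-Rnr2, against 3900 and 1271 CPM per kb.

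Among mitochondrial rows, the rRNAs were not the most abundant in these depleted libraries. COX1, the catalytic subunit of cytochrome c oxidase, had the highest median, 12758 CPM per kb with 39.8% of its windows shared, and exceeded both rRNAs per kb in all 24 libraries. ND1, a complex I subunit whose gene follows mt-Rnr2 on the precursor, had a median of 4807 CPM per kb, and CYTB, cytochrome b of complex III, 4213 CPM per kb. The level of mt-Rnr1 per kb was below that of ND1 in 19 of 24 libraries, and mt-Rnr2 was below ND1 in all 24. ND2, ND4 and ND5, further complex I subunits, had medians of 2443, 2294 and 1930 CPM per kb, and ND6 had 507 CPM per kb. Per kb, ND6 was the lowest of the 7 protein rows with ample counts in all 24 libraries. The place of ND4 in this order depends on the measure, because 61.5% of its windows are shared and its counts cover only part of the gene. Counting only windows found once, as for the members above, ND4 had a median of 6297. On that scale it lay above ND1 (5210), CYTB (4504) and mt-Rnr1 (4227), and COX1 was still the highest (22272).

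Of the 10 protein rows that passed the filter, none was called by edgeR or DESeq2 in any of the 8 contrasts, in which 0.0% to 52.2% of all genes were called. The rows of COX2, ATP6 and COX3 held at most 31 counts and are left out of the ranges that follow, which cover the 7 rows with ample counts. At day 20 the log2 fold changes of these 7 in KO ran from -0.61 (ND5, SE 0.248, adjusted p = 0.268, the one row with an unadjusted p under 0.05) to -0.10 (COX1). Without WT_d20_2 the ND5 value was -0.28 (adjusted p = 0.508) and 2 of the 7 values lay above 0. Over the mean of the 4 days all 7 had values below 0, from -0.36 (ND2, SE 0.172, adjusted p = 0.214) to -0.10, with a median of -0.20 against 0.005 over all genes tested, and the member values, -0.42 and -0.50, lay below that range. Without WT_d20_2 the 7 ran from -0.27 to 0.014 (ND6) with a median of -0.13, and both members, at -0.15 and -0.20, lay inside that range.

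From day 20 to day 26 in WT, all 7 had values below 0, the lowest at -0.74 (ND1, SE 0.320, adjusted p = 0.0683), with a median of -0.59 against -0.04 over all genes. Without WT_d20_2 ND1 was -0.49 (adjusted p = 0.163), 6 of the 7 had values below 0, and the median was -0.36. ND1, COX1, ND5 and CYTB had an unadjusted p under 0.05 with all libraries. These 4 were called lower without KO_d22_4, these and ND4 without WT_d20_1, and COX1 alone without WT_d20_3 or WT_d20_4. The fits without KO_d22_4 and without WT_d20_1 called 3259 of 17189 and 3532 of 17179 genes lower. In KO all 7 had values below 0, though ND5 and ND6, both at -0.05, turned with DESeq2 and with its size factors in edgeR, and the median was -0.37 against -0.07 over all genes, and COX1 came closest to a call (-0.60, SE 0.255, adjusted p = 0.0530). COX1 was called lower in KO without WT_d20_2 (-0.60, adjusted p = 0.0130) and in 5 other fits that left out 1 library, KO_d20_3, KO_d20_4, WT_d20_1, WT_d20_3 or KO_d22_4, with scaling that left out the mt- rows (-0.60, adjusted p = 0.0457) or all mitochondrial rows and Rn45s (-0.61, adjusted p = 0.0482), and with only the 2 groups compared, where ND1, ND4 and CYTB were called lower too. With only the 2 groups compared, 4337 of 16451 genes were called lower in KO, and without WT_d20_2 5030 of 17171. The KO effect at day 26 minus that at day 20 was above 0 in 6 of the 7, with a median of 0.28, and without WT_d20_2 it was below 0 in 5 of the 7, with a median of -0.07.

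The proteins that transcribe mitochondrial DNA and process its RNA are encoded by nuclear genes, made in the cytosol and imported. A list of 70 genes, of which 66 were tested, held mostly factors of mitochondrial DNA and RNA, with 2 matrix proteases (Lonp1 and Clpx) and 6 regulators of nuclear transcription (Ppargc1a, Ppargc1b, Pprc1, Nrf1, Gabpa and Esrra). From day 20 to day 26 in WT, 7 rose and 13 fell, beside 24.4% and 18.1% of all genes, and the list's median log2 fold change was -0.15. Without WT_d20_2 it was 11 and 13, beside 24.4% and 22.0% of all genes, with a median of -0.12. Without the proteases and regulators, 5 rose and 11 fell of 58 with all libraries. In KO 13 rose and 15 fell, beside 27.2% and 24.9% of all genes, with a median of -0.10. The methyltransferase NSUN4, which modifies 12S rRNA and with MTERF4 helps to join the subunits, rose in WT from 13.3 ± 1.61 CPM (SD, n = 4) to 33.8 ± 2.75 CPM (n = 2), a log2 fold change of 1.34 (adjusted p = 2.15e-07). Clpx, the regulatory subunit of a matrix protease, rose by 1.05 on the log2 scale (adjusted p = 1.43e-06) and Nsun2, another RNA methyltransferase, by 0.66 (adjusted p = 0.000161). Trit1, a transfer RNA modifier, fell by 0.91 (adjusted p = 0.00204), Fastkd5, which acts in the processing of mitochondrial precursors, fell by 0.82 (adjusted p = 0.00223), and Lrpprc, which stabilises the messenger RNAs, fell by 0.50 (adjusted p = 0.00624). Of these 6, Lrpprc alone lost its call when 1 library was left out, WT_d26_1 (-0.46, adjusted p = 0.0581).

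Tfam, which packages mitochondrial DNA and opens its promoters, rose in WT from between 17.5 and 33.0 CPM at day 20 to 34.0 and 39.2 CPM at day 26 (log2 fold change 0.68, adjusted p = 0.00934), and its call was lost without WT_d26_1 (0.56, adjusted p = 0.0924). The polymerase gene Polrmt was 28.5 ± 9.13 CPM at day 20 and 29.6 ± 0.796 CPM at day 26, a difference of 0.05 in log2 units (SE 0.224, adjusted p = 0.875) that turned to -0.20 without WT_d20_2. Of 10 tested factors of this list known to act on the 2 rRNAs or to join them into subunits, a group picked with results known, 1 rose, 3 fell and 6 were not called, beside 24.4% and 18.1% of all genes. Nsun4, above, was the one that rose. Eral1, a chaperone of 12S, fell by 0.53 (adjusted p = 0.00963), Mrm1, which methylates 16S, fell by 0.75 (adjusted p = 0.00885), and Ddx28, a helicase of the large subunit, fell by 0.46 (adjusted p = 0.0256). Each of these 3 lost its call without a WT library of day 26: Eral1 without WT_d26_1 (adjusted p = 0.0981), Mrm1 without WT_d26_2 (0.0902) and Ddx28 without either (0.132 and 0.0883). Those not called were the helicase Dhx30 (0.57, SE 0.236, adjusted p = 0.0554), the 12S methyltransferase Tfb1m (0.42, SE 0.197, adjusted p = 0.0943), Fastkd2, which binds 16S (0.31, SE 0.218, adjusted p = 0.255), Mterf4 (-0.15, SE 0.162, adjusted p = 0.488), Grsf1 of the RNA granules (-0.19, SE 0.112, adjusted p = 0.170) and Rpusd4, a pseudouridine synthase (-0.34, SE 0.140, adjusted p = 0.0547). WT_d20_2 decided several of these: without it Fastkd2 (0.62, adjusted p = 0.000125) and Tfb1m (0.56, adjusted p = 0.00782) were called higher, Dhx30 was 0.30, and the group stood at 3 up and 3 down. Without WT_d20_3 Tfb1m was 0.27. Fastkd2 was between 0.15 and 0.20 without any other WT library of day 20, Dhx30 was called without WT_d20_1 (0.69) or KO_d22_4 (0.57), Rpusd4 was called in 10 of the 24 fits that left out 1 library, and Mterf4 ran from -0.28 to -0.06 over them.

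In KO against WT the list had 1 call over the mean of the 4 days, Ptcd1, an RNA-binding protein of the same processing pathway, which was higher in KO (log2 fold change 0.30, SE 0.0736, adjusted p = 0.0226), beside 7.08% of all genes. Its days were unequal, with 0.10, 0.08 and 0.24 at days 20, 22 and 24 and 0.77 at day 26, where WT read 36.2 ± 0.598 CPM and KO 61.7 ± 3.26 CPM (n = 2 each). The call was lost without KO_d24_2, WT_d24_2, KO_d26_2 or WT_d26_1 (adjusted p = 0.0661, 0.0682, 0.0587 and 0.0564). Polrmt, Tfam and Lrpprc had values of 0.05, 0.14 and -0.07 over the mean of the days (adjusted p = 0.846, 0.429 and 0.584). Without WT_d20_2 the list had 2 calls there, Ptcd1 and Trub2, and 2 at day 20, all higher in KO, beside 7.89% and 1.87% of all genes. Those at day 20 were Mterf1a (0.69, adjusted p = 0.039) and Fastkd2 (0.42, adjusted p = 0.035). That fit also called 1 gene of the list higher at day 22 and 1 at day 26, beside 493 and 103 of 17171 genes. With all libraries Nsun4 alone was called at day 22, higher in KO by 0.45 (SE 0.118, adjusted p = 0.0465), beside 2.51% of all genes. Its values at days 20, 24 and 26 were 0.18, -0.06 and -0.12, and the day 22 call was lost in 12 of the 24 fits that left out 1 library (adjusted p up to 0.234), those without each WT library of that day among them.

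The proteins that join these rRNAs in the ribosome were represented by 77 Mrps and Mrpl genes, a list added after the files were seen. It was taken by name alone, so not every gene in it need encode a ribosomal protein. Mrpl12 is in both this list and the RNA processing list. From day 20 to day 26 in WT 8 rose and 17 fell, beside 24.4% and 18.1% of all genes, with a median of -0.17. Without WT_d20_2 it was 7 and 21, beside 24.4% and 22.0%, with a median of -0.11. In KO 9 rose and 15 fell, beside 27.2% and 24.9% of all genes, with a median of -0.12. The medians over all genes were -0.04 and -0.07. None was called in KO against WT at any day, beside 3.34%, 2.51%, 0.0874% and 0.0466% of all genes in order of day, or over the mean of the days, beside 7.08%. Without WT_d20_2, 1 was called at day 20, higher in KO, beside 1.87%. A list of 97 symbols of nuclear genes for respiratory chain and ATP synthase subunits matched 82 rows, of which 80 were tested. In WT 8 rose and 7 fell, again beside 24.4% and 18.1% of all genes, with a median of -0.08. Without WT_d20_2 it was 10 and 7, beside 24.4% and 22.0%, with a median of 0.0019. In KO 8 rose and 4 fell, beside 27.2% and 24.9%, with a median of 0.0022. Those with the lowest adjusted p were Ndufb8 (0.90, adjusted p = 9.49e-07), Cox5a (0.65, adjusted p = 0.00068) and Uqcrfs1 (0.70, adjusted p = 0.00107) among the genes that rose, and Ndufa3 (-1.09, adjusted p = 0.00874), Ndufa10 (-0.48, adjusted p = 0.0159) and Ndufv3 (-0.75, adjusted p = 0.0218) among those that fell. They are subunits of complexes I, III and IV. The 3 that rose kept their calls without any 1 library, and the 3 that fell lost theirs without WT_d26_2 (adjusted p = 0.0839, 0.182 and 0.182). Over the mean of the 4 days none of the 80 was called in KO against WT, beside 7.08% of all genes, and 2 were without WT_d20_2, beside 7.89%. At day 20 Ndufb8 alone was called, at 0.36 (adjusted p = 0.0313), beside 3.34%, and its call was lost without any 1 of 6 day 20 libraries, WT_d20_1, WT_d20_2, WT_d20_3, KO_d20_1, KO_d20_3 and KO_d20_4 (adjusted p = 0.0629 to 0.0985). Without WT_d20_2 the one OXPHOS gene called at day 20 was Uqcrfs1, higher in KO by 0.54 (SE 0.103, adjusted p = 0.0185), beside 1.87%.

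By Spearman correlation of log2 CPM over the 24 libraries, a measure chosen after the files were seen, each member was the gene most like the other (rho = 0.89) among all genes tested. Next to mt-Rnr1 came Atp5j2, a subunit of ATP synthase (rho = 0.85), Rpl38, a protein of the cytosolic ribosome (0.82), and Atpif1, the inhibitor of ATP synthase (0.80). Next to mt-Rnr2 came Lars2, the mitochondrial leucine transfer RNA synthetase (0.76), and the cytosolic ribosomal protein genes Rpl23a and Rpl23 (0.75 and 0.72). Lars2 was checked for shared sequence, and the longest run that any of its 9 annotated transcripts has in common with mt-Rnr2 on either strand was 12 bases. It read 396 CPM in WT_d20_2 and 103 to 402 CPM over all libraries. Of the protein rows, ND2 and ND5 ranked highest for mt-Rnr1, 10th and 12th (rho = 0.75 and 0.74), while COX1 (0.32) and ND6 (0.05) ranked 1015th and 6331st. For mt-Rnr2 the highest were ND2 and ND1, 13th and 18th (0.66 and 0.64). ND5 (0.60), COX1 (0.36) and ND6 (0.20) ranked 33rd, 1192nd and 3908th there. These ranks describe libraries that differ in age, genotype and cell content all at once.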

How the data were processed

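Per the labels and the study's methods, testis RNA was rRNA-depleted (TruSeq Stranded Total RNA), and the authors aligned read pairs to mm10 with STAR 2.7.11b and counted them with HTSeq by strand, discarding pairs with several alignments. The deposited tables, 1 per library, hold raw read-pair counts for each gene, neither normalized nor pooled; tallies of unassigned pairs (45.1% to 58.5% without a feature, 4.74% to 13.7% with several alignments) stayed out of library sizes. The submitters' processing notes also name DESeq2 1.22.2. Here, edgeR 4.0.16 (R 4.3.3, limma 3.58.1) tested the counts with TMM scaling, filterByExpr at a minimum count of 10, a robust quasi-likelihood fit over 24 libraries in 8 groups, two-sided, with Benjamini-Hochberg adjustment. Alternatives were DESeq2 1.42.0, other scalings, no filter, smaller fits, a replicate block and leaving out each library. The fit was tested on simulated data. The table rows named are both rRNAs, every protein row, and, from the RNA processing and respiratory chain lists, up to 3 called genes per direction with the lowest adjusted p, plus Polrmt, Tfam and Lrpprc. The other factors acting on the rRNAs, the KO calls Nsun4, Ndufb8, Trub2 and Mterf1a, and the genes most alike were chosen after their values were seen. Members and lists were chosen with earlier results of these data known. The study's text gives fewer day 20 replicates than the labels; all were used. No 2 libraries of a group agreed within sampling noise. log2 CPM had a prior count of 2. Correlations used 100000 permutations. Python 3.11.15, scipy 1.17.1 and pandas 2.3.3 made the summaries.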

Additional observations from a re-analysis of the deposited data

Results flagged for a closer look

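In groups of 4 libraries, 1 library lay far from the other 3 in 7 of the values examined; chance alone gives about 1 such gap in 20 groups, and 60 groups were examined. WT_d20_2 accounts for 5 of them: mt-Rnr1 at 22677 CPM (others 2985 to 4762), mt-Rnr2 at 14094 CPM (others 1643 to 3071), COX1 at 37586 CPM (others 19403 to 21990), ND6 at 882 CPM (others 203 to 274) and the mitochondrial rRNA share at 3.26% (others 0.484% to 0.816%). In WT_d20_3 the ATP6 row, which nearly all shares its sequence with a nuclear copy, read 1.33 CPM (others 0.504 to 0.629). In KO_d22_2 the ratio of mt-Rnr1 to mt-Rnr2 per kb was 4.66 (others 2.45 to 2.80), from 5209 CPM of mt-Rnr1 and 1851 CPM of mt-Rnr2.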

How the results depend on the processing

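Of the 8 counts of called members, 6 were the same in every alternative run. For WT at day 26 against day 20 the count of 1 became 2 with DESeq2, with scaling that left out the 2 rRNA rows, and with scaling that left out all mitochondrial rows and Rn45s (added after seeing the data), and 0 without the filter or with only the 2 groups compared. Leaving out 1 library gave 0 to 2: 0 in 7 fits, 1 in 10 and 2 in 7. For KO against WT at day 26 it became 1 with the day fitted alone. The median share of mitochondrial rows moved from 4.54% to 1.87% with all pairs as denominator, which adds the unassigned pairs, and lay between 4.52% and 4.57% without 1 library. For the members in all contrasts, and the protein rows over the mean of the days and with age in WT, directions turned only without single libraries, and the values without 1 library are given as lowest to highest. For KO against WT at day 22, mt-Rnr1 ran from -0.66 to 0.10 and mt-Rnr2 from -0.89 to 0.011, turning without KO_d22_4. With age in KO, mt-Rnr2 ran from -0.27 to 0.055, turning without KO_d20_1. Over the mean of the days, COX2 ran from -0.37 to 0.064, turning without KO_d26_1, and ND6 from -0.26 to 0.014, turning without WT_d20_2. With age in WT, ND6 ran from -0.83 to 0.13, turning without WT_d20_2, ATP6 from -0.84 to 0.29, turning without WT_d20_3 and WT_d26_2 (0.26), and COX3 from -0.16 to 0.26, turning without WT_d26_1, WT_d20_1 (-0.15) and WT_d20_4 (-0.03). In the other contrasts the 7 protein rows with ample counts turned more often: at day 20 COX1 and ND6 without WT_d20_2, at day 22 all but ND6 without KO_d22_4, at day 26 ND1 and COX1 without KO_d26_1 and ND5 without KO_d26_2 or WT_d26_1, and in the difference of the KO effect between days 26 and 20 ND2, ND4, ND6 and CYTB without WT_d20_2. Rows with values near 0 (COX1 in that difference, ND5 at day 22, ND6 at day 26, and ND5 and ND6 with age in KO) turned under other scalings or filters too. None of these values was called, and the cause was not tested.

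Replicate numbers are shared between genotypes, and whether they pair the libraries is not given in the sources used here. Same-numbered libraries correlated at 0.07 to 0.41 at day 20 and at -0.46 to -0.03 at day 22. The other pairs ran from -0.41 to 0.29 at day 20 and from -0.23 to 0.46 at day 22. Not every library correlated best with its own number. At days 24 and 26 same-numbered libraries correlated at 0.39 and 0.42, where with 2 libraries a group the other pairs take the opposite sign by construction. A replicate block left 0 members called in the 6 contrasts where it could be fitted, and moved the day 20 values to -1.09 (mt-Rnr1) and -0.96 (mt-Rnr2), those of day 22 to -0.57 for both, and the difference of the KO effect between days 26 and 20 to 1.66 and 1.20; numbers are nested in day, so no paired analysis was possible for the age contrasts. Depth limits neither member, while the rows of COX2, COX3 and ATP6 hold too few counts to read.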
